A study of Mus musculus with 6 samples.

Results

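The sirtuins are a family of enzymes that remove acetyl and related acyl groups from lysines of proteins and consume NAD in each reaction, so that their activity depends on the supply of this coenzyme. The members differ in where they act: Sirt2 lies mainly in the cytoplasm, Sirt1, Sirt6 and Sirt7 in the nucleus, and Sirt3, Sirt4 and Sirt5 in mitochondria. In the brain, Sirt2 is known as a protein of oligodendrocytes and of the myelin sheath, where it deacetylates tubulin.

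The 7 mouse sirtuin genes, Sirt1 to Sirt7, were taken by symbol from the deposited count table, which lists 31276 symbols. All 7 were among the 16592 genes with enough counts to be tested. The family was chosen with the difference of Sirt2 between the groups already known, so the KO and WT levels of its members are described here without a test of their own.

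Brains of C57BL/6 mice at postnatal day 14 were profiled by RNA sequencing of polyadenylated transcripts. The KO group (n = 3) is labelled PRMT5 olig2cre KO, a knockout of the arginine methyltransferase PRMT5 by Cre recombinase expressed from Olig2, a gene of the oligodendrocyte lineage that some other neural cells also express during development. The WT group (n = 3) is labelled wild-type, with no allele named. The comparison asks how transcript levels in the brain differ when Prmt5 is deleted in cells with a history of Olig2 expression. The labels do not say that the samples of a group are separate animals, so the spread behind each p-value may be partly technical.

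Library totals ran from 15089140 to 16365802 counts in KO and from 15219817 to 16872925 counts in WT. Levels are CPM, a library's counts as a share of its total, after scaling of totals with TMM factors, and every log2 fold change sets KO over WT. Prmt5 stood at 68.2, 68.4 and 81.6 CPM in KO and at 90.8, 90.4 and 91.8 CPM in WT. All KO libraries were below all WT libraries, with a log2 fold change of -0.32 (SE 0.095; edgeR adjusted p = 0.232, and 0.0379 with the replicate number as a block). The 15 myelin markers were all lower in KO by edgeR's quasi-likelihood test, with a median log2 fold change of -2.58, whereas of 8 astrocyte, 6 microglial, 8 neuronal and 6 endothelial markers 0 were called. Of 8 markers of precursors and of the oligodendrocyte lineage 4 fell (7 with the block). The 4 were Pdgfra and the lineage genes Sox10, Olig1 and Olig2. The KO label names an Olig2 Cre and the WT label names no allele. For Olig2 itself the Cre allele and the Prmt5 deletion therefore cannot be told apart. Of 8 meningeal markers 5 rose (7 with the block), while of 8 cerebellar markers 0 were called (4 higher in KO with the block). Over all 16592 tested genes 1.2% were called (3.41% with the block). Transcripts of the cerebellum were present in KO replicates 1 and 3 and in WT replicate 1 (Gabra6 at 80.0, 22.1 and 63.8 CPM) and at 0 for Gabra6 in the other libraries. KO replicates 1 and 2 and WT replicate 2 had high Xist and the other libraries almost none, so both sexes occur in each group. KO replicate 3 stood apart in that long transcripts were relatively low in it (Spearman correlation of -0.455 between exon length and deviation from the mean, across genes, against -0.179 to 0.257 in the other libraries).

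What unites the 7 genes is visible in the sequence that encodes a short stretch of the NAD-binding pocket, in which a glutamine, an asparagine and an aspartate recur in each member. The stretches are shown to let the members be compared codon by codon. They were read from GENCODE M21 transcripts on mm10, 5′ to 3′ on the coding strand, and the capitals mark the asparagine and aspartate codons.
Sirt1: actcaaAATataGATaccttggagcag
Sirt2: acgcagAACataGACacgctggaacga
Sirt3: acacagAACatcGACgggcttgagaga
Sirt4: actcagAACgtgGACgctttgcactcc
Sirt5: acccagAACattGACgagttgcatcgc
Sirt6: agccagAACgtaGACgggctgcacgtg
Sirt7: tctcagAACtgtGATgggctccacctg

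Over these 27 bases Sirt3 matched Sirt2 at 20 positions, Sirt5 at 19, Sirt1 at 18, Sirt6 at 17, Sirt4 at 16 and Sirt7 at 14. The asparagine codon was AAC in every member except Sirt1, and the aspartate codon was GAC in every member except Sirt1 and Sirt7. The longest identical run shared by the annotated transcripts of any pair of members was 11 to 23 bases. Runs of this length are much shorter than a sequencing read.

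The genes lie apart from each other. Sirt2 spans chr7:28766735-28788661 on the plus strand of mm10, with 2254 bases of exon in the GENCODE M21 basic transcripts. Sirt3 lies on the same chromosome, at chr7:140863666-140882309 on the minus strand, with 1724 exonic bases. Sirt1 (chr10:63319005-63381704, 4430 exonic bases) and Sirt6 (chr10:81621785-81627797, 2322 exonic bases) share chromosome 10, both on the minus strand. Sirt4 spans chr5:115478010-115484725 (minus strand, 2039 exonic bases), Sirt5 chr13:43365496-43395203 (plus strand, 2950 exonic bases) and Sirt7 chr11:120618372-120625240 (minus strand, 1803 exonic bases).

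Sirt2, the cytoplasmic tubulin deacetylase, was the member that stood apart between the groups. It had 2486, 3087 and 2290 reads in KO libraries and 7823, 7345 and 7455 reads in WT libraries. Its level was 151.2, 194.5 and 145.5 CPM in KO and 488.7, 496.4 and 448.5 CPM in WT. Every KO library lay far below every WT library. KO averaged 163.7 ± 26.8 CPM and WT 477.9 ± 25.7 CPM (SD, n = 3 each), a log2 fold change of -1.55 (SE 0.122), so that Sirt2 was 2.92-fold lower in KO and stood at 34.3% of its WT level. In whole tissue, fewer cells of a type and less RNA per cell cannot be told apart.

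Of the 7 sirtuins, Sirt2 was called lower in KO and 0 were called higher, with edgeR's quasi-likelihood test at a Benjamini-Hochberg adjusted p under 0.05. Over all 16592 tested genes, 1.2% were called, 0.958% lower and 0.241% higher in KO. With the replicate number as a block the share was 3.41%, and Sirt2 was again the one sirtuin called. Sirt2 was also the one sirtuin whose KO and WT ranges did not overlap, against 16% of all tested genes. Because Sirt2 was selected on this contrast, nothing is read from these counts.

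The nuclear members did not share the pattern of Sirt2. Sirt1, a deacetylase of histones and of regulators such as p53 and the FOXO factors, stood at 15.99, 15.75 and 13.15 CPM in KO and at 15.24, 12.71 and 13.48 CPM in WT. Its group ranges overlapped, with means of 14.96 ± 1.58 CPM in KO and 13.81 ± 1.30 CPM in WT (SD, n = 3 each) and a log2 fold change of 0.12 (SE 0.143).

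Sirt6, a deacetylase of histone H3 that acts in DNA repair and in the control of glycolytic genes, stood at 17.9996, 19.97 and 20.65 CPM in KO and at 17.68, 19.73 and 21.72 CPM in WT. The KO values lay inside the WT range, and the means differed by less than the SD of either group (19.5 ± 1.38 CPM in KO and 19.7 ± 2.02 CPM in WT, log2 fold change -0.01, SE 0.130).

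Sirt7, the nucleolar sirtuin that acts on transcription of ribosomal RNA genes, stood at 17.1, 26.8 and 21.3 CPM in KO and at 21.5, 26.6 and 27.2 CPM in WT. Its lowest library was KO replicate 1, while KO replicate 2 lay among the WT values. The means were 21.7 ± 4.86 CPM in KO and 25.1 ± 3.13 CPM in WT (SD, n = 3 each), with a log2 fold change of -0.21 (SE 0.170). With a term for cerebellar transcripts in the model, the log2 fold change of Sirt7 was -0.08.

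The 3 mitochondrial members each had a slightly higher mean in KO, with overlapping groups. Sirt3, the main mitochondrial protein deacetylase, stood at 41.7, 44.1 and 56.0 CPM in KO and at 38.1, 42.9 and 43.7 CPM in WT. Its highest library was KO replicate 3, and the log2 fold change was 0.18 (SE 0.125). Sirt4, an ADP-ribosyltransferase and lipoamidase of metabolic enzymes, stood at 7.36, 9.26 and 8.77 CPM in KO and at 6.18, 9.66 and 6.92 CPM in WT. Its highest library was a WT one, and the log2 fold change was 0.16 (SE 0.204). Sirt5, which removes succinyl and malonyl groups, stood at 8.39, 7.94 and 10.55 CPM in KO and at 7.06, 7.43 and 8.36 CPM in WT. The same KO replicate 3 was highest, and the log2 fold change was 0.23 (SE 0.177), the highest of the family.

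KO replicate 3 is also the library in which long transcripts were relatively low. With offsets that adjust each library for exon length, the log2 fold changes were 0.10 for Sirt3, 0.09 for Sirt4 and 0.20 for Sirt5. Without KO replicate 3 they were 0.04, 0.13 and 0.10. All stayed positive, but the part of that library in these differences was not tested.

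Levels can be compared between members only per length, and for this CPM were divided by the exonic length in kilobases (kb). The lengths are those of GENCODE M21 basic transcripts, while the counts were made on UCSC knownGene exons, so levels per kb are approximate. Sirt2 was the most abundant member in both groups, at 72.6 ± 11.9 CPM per kb in KO and 212 ± 11.4 CPM per kb in WT (SD, n = 3 each). Sirt3 came next, at 27.4 ± 4.43 CPM per kb in KO and 24.1 ± 1.77 CPM per kb in WT. Sirt7 stood at 12.1 ± 2.69 CPM per kb in KO and 13.9 ± 1.74 CPM per kb in WT, and Sirt6 at 8.42 ± 0.592 CPM per kb in KO and 8.49 ± 0.871 CPM per kb in WT. The other members lay lower and close together. Sirt4 stood at 4.15 ± 0.484 CPM per kb in KO and 3.72 ± 0.900 CPM per kb in WT, Sirt1 at 3.38 ± 0.356 CPM per kb in KO and 3.12 ± 0.293 CPM per kb in WT, and Sirt5 at 3.04 ± 0.472 CPM per kb in KO and 2.58 ± 0.228 CPM per kb in WT.

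**Figure D1:**
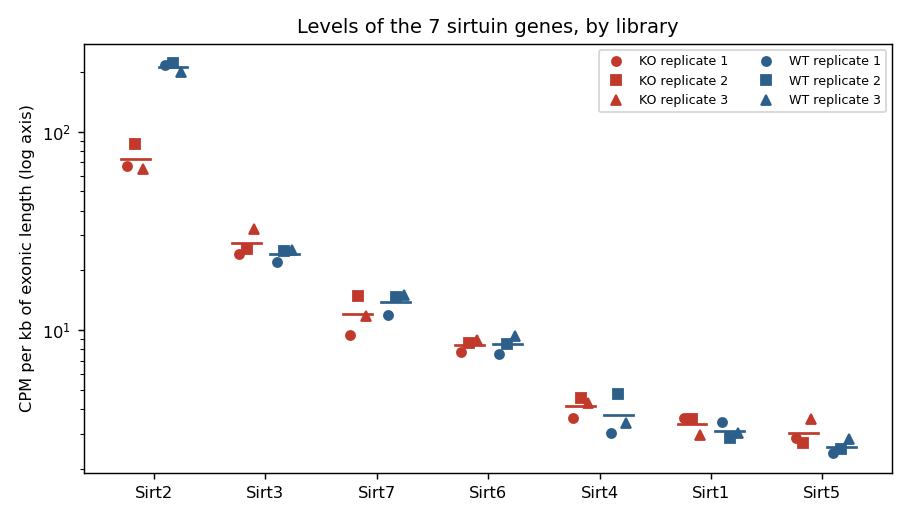
Level of each sirtuin in CPM per kb of exonic length (vertical log axis) in the 3 KO libraries (red, left) and the 3 WT libraries (blue, right), 1 symbol per replicate, with a line at each group's mean. The groups overlap for every member except Sirt2, whose mean is 72.6 CPM per kb in KO and 212 CPM per kb in WT.

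The order of means was thus the same in KO and WT. Neighbours in this order whose libraries overlapped were Sirt4 with Sirt1 and Sirt1 with Sirt5 in KO, and Sirt4 with Sirt1 in WT. The step from Sirt2 to Sirt3 was 2.65-fold in KO and 8.79-fold in WT. With exonic lengths over all annotated transcripts, which include retained introns, Sirt2 stayed first in both groups but the order of the next members depended on the length used.

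Summed over the family per length, Sirt2 made up 56.6%, 59.1% and 50.2% of sirtuin transcripts in the KO libraries and 81.1%, 79.1% and 77.1% in the WT libraries. The lowest WT share was above the highest KO share. With these approximate lengths Sirt2 took more than the other 6 members together in every library of both groups. In KO replicate 3 the margin was slight, at 50.2%, or 50.1% with lengths over all annotated transcripts, so it is uncertain there. The 7 members together stood at 131 ± 13.9 CPM per kb in KO and 268 ± 10.2 CPM per kb in WT. The other 6 members together stood at 51.5, 59.8 and 64.0 CPM per kb in KO and at 50.5, 58.3 and 59.1 CPM per kb in WT. That sum overlapped between the groups, while the family total did not.

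**Figure D2:**
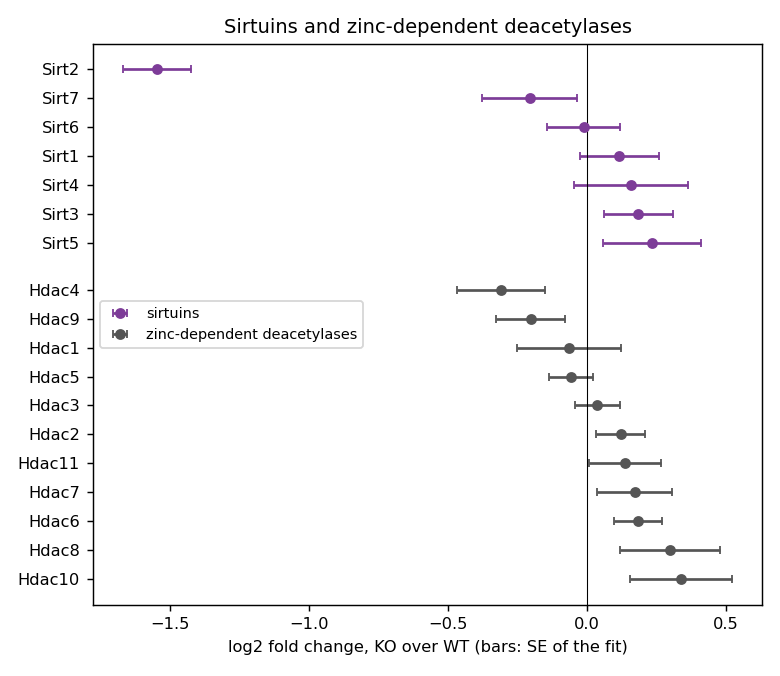
Log2 fold change of KO over WT (horizontal axis, with the standard error of the fit as bars) for the 7 sirtuins and, under them, for the zinc-dependent deacetylases, which remove acetyl groups without NAD. Sirt2 lies at -1.55, while the zinc-dependent deacetylases lie between -0.31 and 0.34.

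Sirt2 was lower in KO, as the genes of myelin were, but with a smaller difference than most of them. Of the 15 myelin markers, 14 had a lower log2 fold change than Sirt2, and the exception was Aspa, the enzyme that splits N-acetylaspartate in oligodendrocytes, at -1.37. Relative to its WT mean, Sirt2 stood at 31.6%, 40.7% and 30.4% in the KO libraries and at 102%, 104% and 93.9% in the WT libraries. The median of the 15 myelin genes stood at 13.9%, 25.4% and 11.3% in KO and at 117%, 88.3% and 95.2% in WT. More of the WT level of Sirt2 than of the median myelin gene was thus left in each KO library. KO replicate 2 was the highest KO library both for Sirt2 and for 14 of the 15 myelin genes. Among the WT libraries, Sirt2 was highest in replicate 2, where the myelin median was lowest. How many of all tested genes were highest in KO replicate 2 was not counted, so nothing is read from this order. The summed level of the 15 markers was 1252, 2045 and 963 CPM in KO and 10848, 7944 and 8218 CPM in WT. That of the 8 precursor and lineage markers was 341, 322 and 317 CPM in KO and 591, 569 and 549 CPM in WT. The part of these cells in the difference of Sirt2 was not tested.

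Individual myelin genes show the range. The level in KO as a share of WT was 14.97% for Mbp, which compacts the sheath. It was 23.9% for Cnp, an enzyme of the cytoplasmic channels of myelin, 26.0% for Gjb1, a gap junction protein, and 38.6% for Aspa, beside 34.3% for Sirt2. Over all tested genes, 66 of 16592 had a lower log2 fold change than Sirt2.

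**Figure D3:**
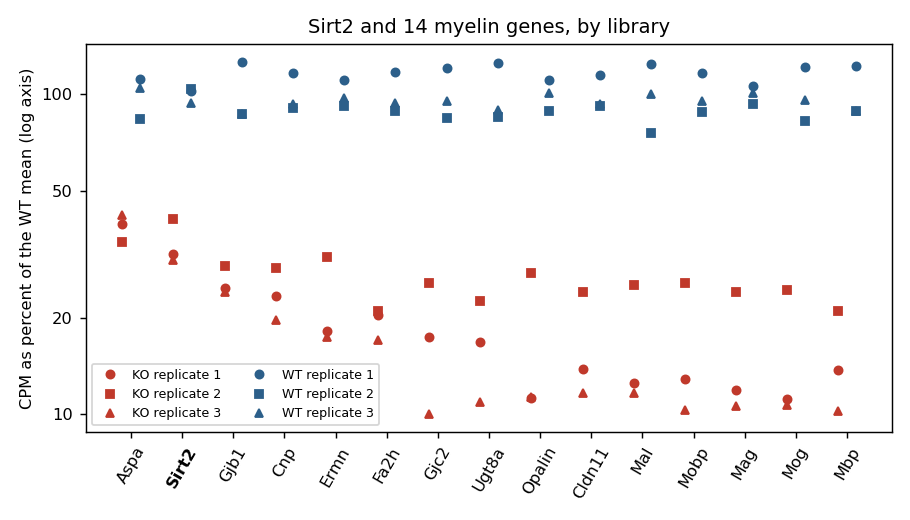
CPM in each library as a percentage of the gene's WT mean (vertical log axis), for Sirt2 and 14 of the 15 myelin markers in order of log2 fold change, with KO libraries in red left of WT libraries in blue and 1 symbol per replicate. In the KO libraries Sirt2 lies at 30.4% to 40.7%, above every plotted myelin marker but Aspa by the group mean.

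The genes whose levels were most like that of Sirt2 were sought by Pearson's r of log2 CPM over the 6 libraries, among the 12480 other tested genes that averaged 5 CPM or more. Since both groups enter, r is high for any gene that differs between KO and WT by a steady amount, and it is given as a description. The top 10 were Elovl1 (r = 0.998), Gm19897 (0.998), Gltp (0.997), Pllp (0.997), Bcas1 (0.996), Rnf122 (0.995), Myo1d (0.995), Cers2 (0.994), Cldn11 (0.994) and Ermn (0.994). Among them, Cldn11 and Ermn are on the myelin list. Cldn11 forms the tight junctions of myelin and Ermn is a cytoskeletal protein of oligodendrocytes.

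Among the 10, Elovl1 elongates very long-chain fatty acids, Cers2 joins such fatty acids to sphingoid bases, and Gltp transfers glycolipids. Elovl1 stood at 13.9, 16.1 and 12.6 CPM in KO and at 30.2, 32.0 and 29.4 CPM in WT, a log2 fold change of -1.11. Cers2 stood at 38.7, 49.0 and 37.7 CPM in KO and at 90.1, 82.6 and 78.6 CPM in WT, a log2 fold change of -1.002. Gltp stood at 28.6, 35.9 and 25.7 CPM in KO and at 101.4, 92.7 and 82.8 CPM in WT, a log2 fold change of -1.62. As for Sirt2, KO replicate 2 was the highest of the KO libraries for all 3. They were chosen by likeness to Sirt2 over these same libraries, so this order is no separate observation.

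The other genes of the 10 had log2 fold changes of -1.29 (Myo1d, an unconventional myosin), -1.65 (Pllp, plasmolipin, a membrane protein of myelin), -1.71 (Gm19897), -1.93 (Rnf122, a RING finger protein), -2.17 (Ermn), -2.41 (Bcas1, a marker of newly myelinating oligodendrocytes) and -2.59 (Cldn11). Sirt2, at -1.55, lay within this range. Over the 15 myelin markers, r with Sirt2 ran from 0.938 for Aspa to 0.994 for Cldn11.

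Gm19897 is a long noncoding RNA gene that lies inside Sirt2. In the RefSeq annotation of GRCm38.p6 it spans chr7:28774899-28781514, within the span of Sirt2. It stood at 29.0, 35.1 and 28.7 CPM in KO and at 103.9, 102.5 and 98.01 CPM in WT, with means of 30.9 ± 3.62 CPM in KO and 101 ± 3.10 CPM in WT (SD, n = 3 each). The CPM of Gm19897, not divided by length, was 19.2%, 18.04% and 19.7% of the Sirt2 CPM in the KO libraries. In the WT libraries it was 21.3%, 20.7% and 21.9%. Every KO share was below every WT share, with means of 18.98 ± 0.846% in KO and 21.26 ± 0.599% in WT (SD, n = 3 each).

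The strand setting of the counting is not given in the sources used here, so reads of Gm19897 and Sirt2 may be shared. The sum of both was 180, 230 and 174 CPM in KO and 593, 599 and 547 CPM in WT, a log2 difference of -1.57.

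**Figure D4:**
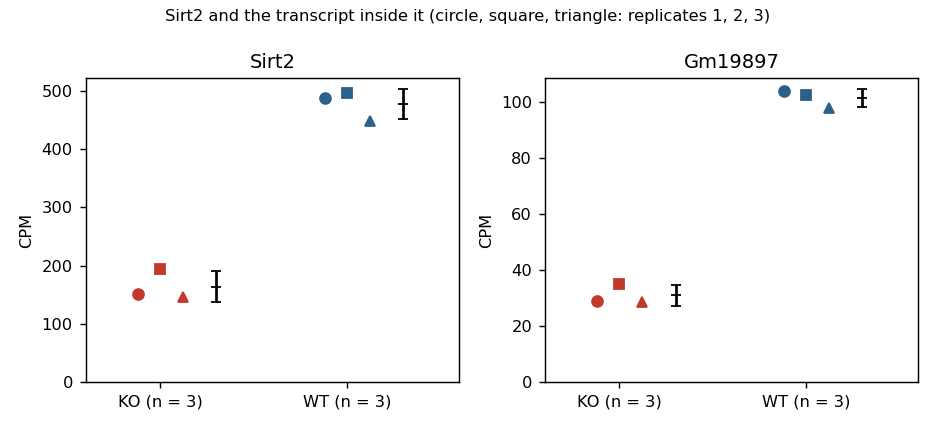
CPM (vertical axes, from 0) of Sirt2 and of Gm19897 in the 3 KO libraries and the 3 WT libraries, 1 symbol per replicate, with the mean and SD as bars. Both are lower in every KO library, and KO replicate 2 is the highest of the KO libraries in both.

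The nearest protein-coding genes flanking the sirtuins held no called gene. Gm19897, which lies inside Sirt2, was called lower in KO and is not among them. Of the 14 nearest protein-coding genes on either side of the 7 members, 11 were tested and 0 were called by edgeR. Over all tested genes 1.2% were called, so nothing is read from this. Of the 11, 1 gene, Pcyt2, had an unadjusted p under 0.05, beside 1605 of 16592 over all tested genes. Pcyt2, an enzyme of phosphatidylethanolamine synthesis next to Sirt7, had a log2 fold change of -0.27. Rinl, a guanine nucleotide exchange factor on the right of Sirt2, had the lowest of the 11, -0.34 with an SE of 0.369 at a mean of 2.07 CPM in KO and 2.62 CPM in WT. Ankrd24, beside Sirt6, had the highest, 0.19. Nfkbib, an inhibitor of NF-kappaB whose gene body overlaps that of Sirt2 with no shared exonic base, stood at 28.6, 29.2 and 30.6 CPM in KO and at 34.7, 32.3 and 35.5 CPM in WT. The groups did not overlap, and the log2 fold change was -0.21 (SE 0.105), which was not called.

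Some members share exonic sequence with other genes, which can touch their counts. Exons of Sirt3 share 61 bases with Ric8a, listed in the counts as Ric8, and 152 bases with Psmd13, both on the opposite strand. Exons of Sirt1 share 65 bases with Gm16145, an antisense transcript. The values of these members are uncertain to that extent.

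The start of Sirt2 is shown as the promoter sequence of the one member that differed. It covers 250 bases before and 50 after the RefSeq start site, at chr7:28766502-28766801 on the plus strand of GRCm38.p6, and the capitals mark CCAAT and TTGTAGT.
Sirt2 promoter: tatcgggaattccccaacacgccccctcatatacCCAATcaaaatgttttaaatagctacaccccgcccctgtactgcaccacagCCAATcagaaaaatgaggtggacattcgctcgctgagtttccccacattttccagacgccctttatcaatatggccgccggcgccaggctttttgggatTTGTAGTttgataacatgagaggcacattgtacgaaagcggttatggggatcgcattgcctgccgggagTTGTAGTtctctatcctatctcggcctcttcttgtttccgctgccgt

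CCAAT begins at -216 and -165, and TTGTAGT, the reverse complement of ACTACAA in the ZNF143 motif, at -66 and 4. Both motifs were picked after the sequence had been seen, and both strands were searched. Of 32851 RefSeq promoters of this length, 37.4% hold CCAAT and 3.24% hold ACTACAA. Among the sirtuins ACTACAA also occurs once in the promoter of Sirt4, whose level overlapped between KO and WT. ACAANG, letters bound by SOX factors, occurs once in the Sirt2 window, as in 41.2% of promoters at least once, and CANNTG, the E-box, does not occur in it, against 72.3% of promoters. A match in these windows is a description and not a binding site. The GC content of the Sirt2 window was the lowest of the family, against 79% for Sirt1 and 51.3% to 64.7% for the other members, beside a median of 52.7% over all promoters, and the Sirt2 window holds 16 CpG dinucleotides against a median of 7.

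For each of the other members the most alike genes reached r of 0.986 to 0.996 over the 6 libraries, each the best of 12480 genes over few libraries and given as a description. The top pairs were Epb4.1l5 and Ssfa2 for Sirt1, Ap2m1 and Adck2 for Sirt3, Cpsf1 and Mybbp1a for Sirt4, Mrps12 and Eif3h for Sirt5, Cyb561d1 and Cav2 for Sirt6, and Ctage5 and Tgfb1 for Sirt7. No gene of these pairs is on the myelin list. The myelin genes were all lower in KO while these members overlapped between the groups, so nothing is read from this.

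The rest of the pathway was followed through genes that make NAD, other enzymes that use it, deacetylases that do not, and known targets of the sirtuins. Over all 16592 tested genes edgeR called 1.2%. With lists this short, 0 calls lie near that share, and nothing is read from them. Of 21 genes of NAD synthesis and salvage, 16 were tested and 0 were called, with 9 higher and 7 lower in KO and a median log2 fold change of 0.02, beside 0.01 over all tested genes, of which 8679 were higher and 7913 lower. At an unadjusted p under 0.05 the count was 0, beside 1605 of 16592 over all tested genes, and DESeq2 and limma-voom also called 0. Their summed level was 405, 411 and 406 CPM in KO and 427, 420 and 422 CPM in WT. Nampt, the rate-limiting enzyme of NAD salvage from nicotinamide, stood at 65.4, 65.0 and 65.2 CPM in KO and at 77.5, 70.7 and 67.1 CPM in WT. The groups did not overlap, but the log2 fold change was -0.14 (SE 0.088) and was not called. Naprt, which uses nicotinic acid and is listed as Naprt1, was at 0.51 (SE 0.260), and Slc12a8, described in mouse as a carrier of nicotinamide mononucleotide, was at 0.61 (SE 0.364).

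Of 17 other NAD-consuming enzymes, 16 were tested and 0 were called by edgeR, DESeq2 or limma-voom. Over all tested genes edgeR called 1.2%, so nothing is read from this. Of the 16, 8 were higher and 8 lower, with a median log2 fold change of -0.01. At an unadjusted p under 0.05 there were 2 of 16, beside 1605 of 16592 over all tested genes. Parp12, an interferon-induced mono-ADP-ribosyltransferase, had the highest log2 fold change of the list, 0.73 (SE 0.212; edgeR adjusted p = 0.220). Tnks2, a tankyrase, was at -0.20 (SE 0.089) and Parp1, the main poly(ADP-ribose) polymerase of DNA repair, at -0.19 (SE 0.092).

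The 11 zinc-dependent deacetylases included 0 called genes by edgeR, DESeq2 or limma-voom, beside 1.2% of all tested genes by edgeR. At an unadjusted p under 0.05 there were 0. Of the 11, 7 were higher and 4 lower, with a median log2 fold change of 0.12. Hdac6, which like Sirt2 deacetylates tubulin in the cytoplasm, stood at 64.8, 68.6 and 72.1 CPM in KO and at 60.8, 59.9 and 60.4 CPM in WT. Every KO library lay above every WT library, by a log2 fold change of 0.18 (SE 0.085) that was not called. Hdac4 was at -0.31 (SE 0.158) and Hdac10 at 0.34 (SE 0.184), the lowest and the highest of the list. Hdac11, which is known from oligodendrocyte development, was at 0.14.

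Of 19 nuclear and cytosolic targets and regulators, 0 were called by edgeR, DESeq2 or limma-voom, beside 1.2% of all tested genes by edgeR. Of the 19, 6 were higher and 13 lower, with a median log2 fold change of -0.06. At an unadjusted p under 0.05 there was 1. That gene was Acss2, the cytosolic acetyl-CoA synthetase that sirtuins deacetylate. Acss2 stood at 47.6, 45.1 and 41.9 CPM in KO and at 60.5, 57.6 and 55.4 CPM in WT, with no overlap and a log2 fold change of -0.37 (SE 0.093). Its edgeR adjusted p was 0.137, and 0.0257 with the replicate number as a block. Foxo3, a transcription factor deacetylated by sirtuins, was at -0.45 (SE 0.242), and Rps19bp1, an activator of Sirt1, at 0.29 (SE 0.150). The transcripts for the tubulin Tuba1a, which Sirt2 deacetylates at the protein level, and for the tubulin acetyltransferase Atat1 were at -0.06 and -0.07.

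Of 20 mitochondrial targets, 19 were tested and 0 were called by edgeR or limma-voom and 1 by DESeq2, with 14 higher and 5 lower, a median of 0.11 and 4 of 19 at an unadjusted p under 0.05, beside 8679 higher, 7913 lower and 1605 at that p among the 16592 tested genes. The gene called by DESeq2 was Idh2, a mitochondrial isocitrate dehydrogenase that Sirt3 activates. Idh2 stood at 43.0, 60.2 and 58.6 CPM in KO and at 36.1, 37.9 and 39.5 CPM in WT, with no overlap. The log2 fold change was 0.51 (SE 0.130), with an adjusted p of 0.138 by edgeR, 0.0308 by DESeq2 and 0.00609 by edgeR with the replicate number as a block. Suclg1, a subunit of succinyl-CoA ligase, was at 0.26 (SE 0.098). Foxo3 is on this list as well.

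**Figure D5:**
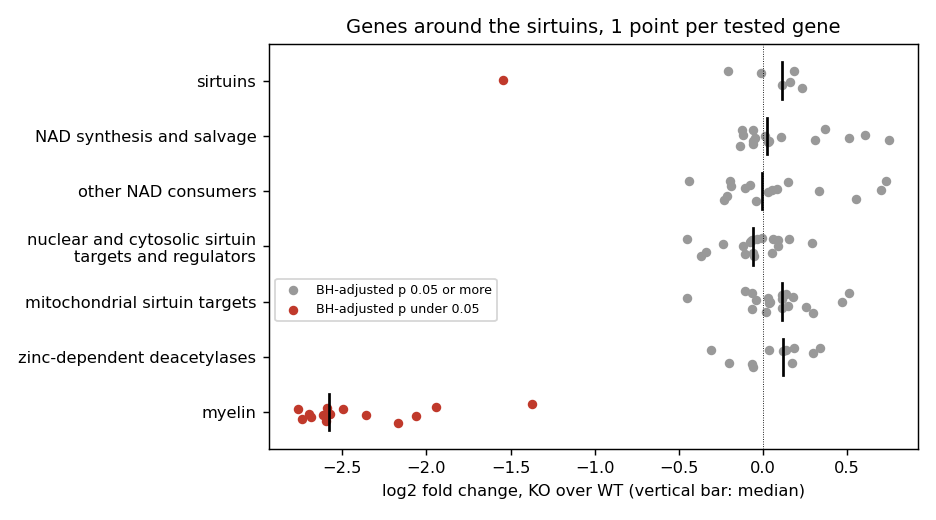
Log2 fold change of KO over WT (horizontal axis), 1 point per tested gene, for the sirtuins, the 5 pathway lists and the myelin markers, with a vertical bar at each median and called genes in red. Medians of the pathway lists lie between -0.06 and 0.12, while Sirt2 lies at -1.55 and the median of the myelin markers at -2.58.

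A contrast that played no part in the choice of the family is that between libraries with cerebellar transcripts (KO replicates 1 and 3 and WT replicate 1) and those without (KO replicate 2 and WT replicates 2 and 3). With genotype in the model, edgeR called 121 of 16592 genes on this term, or 0.729%, and 0 of the 7 sirtuins. DESeq2 and limma-voom also called 0 sirtuins, and 1 sirtuin, Sirt7, had an unadjusted p under 0.05. Sirt7 stood at 17.1, 21.3 and 21.5 CPM in libraries with cerebellar transcripts and at 26.8, 26.6 and 27.2 CPM in those without, with no overlap. How many of all tested genes had such a p or no overlap on this term was not counted, so nothing is read from either. The log2 difference of Sirt7 was -0.40 (SE 0.136, edgeR adjusted p = 0.339). With the replicate number as a block it was -0.20 (edgeR adjusted p = 0.896), and over all alternatives it ran from -0.48 to -0.20. Without KO replicate 3 it was -0.46 with an edgeR adjusted p of 0.0475, the one alternative in which it was called. For Sirt2 the difference was -0.17 (SE 0.114, edgeR adjusted p = 0.773), and for Sirt1 0.05 (edgeR adjusted p = 0.968). Sirt4, Sirt6, Sirt3 and Sirt5 were at -0.31, -0.14, -0.02 and 0.05.

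Within these kinds of library, the genotype difference of Sirt2 was -1.73 where cerebellar transcripts were present (KO replicates 1 and 3 against WT replicate 1) and -1.28 where they were not (KO replicate 2 against WT replicates 2 and 3). Sirt2 was lower in KO in both. For the other members the pairs of values were -0.07 and 0.26 for Sirt1, 0.35 and 0.02 for Sirt3, 0.38 and 0.16 for Sirt4, 0.42 and 0.0045 for Sirt5, 0.12 and -0.06 for Sirt6, and -0.17 and -0.01 for Sirt7. Sirt1 and Sirt6 changed sign between the kinds of library. Each of these values has 1 library in an arm, so they are given as values only.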

How the data were processed

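Polyadenylated RNA of 6 brain samples, 3 KO and 3 WT, was measured as deposited read counts per gene and library, which the authors made with FastQC 0.11.2, Trimmomatic 0.32, STAR 2.3.0e and featureCounts 1.5.0 on mm10, per the submitters' processing notes. Strand setting and treatment of multi-mapping reads are not given in the sources used here. The deposited normalized table was not used.

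After filterByExpr and TMM scaling, counts were tested in R 4.3.3 with edgeR 4.0.16 (quasi-likelihood, group only), with Benjamini-Hochberg adjustment over 16592 genes at 0.05. SE is the log2 fold change over the root of F. DESeq2 1.42.0 and limma-voom (limma 3.58.1) were alternatives, with a replicate block, other filters and scalings, length offsets (loess span 0.5), cerebellar (Gabra6 above 5 CPM) and sex (Xist above 5 CPM) terms, and leaving out each library. Likeness used log2 CPM with a prior count of 2. The edgeR fit with group only was tested on counts simulated with known changes and a fixed dispersion.

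The members, the lists and the rule for named genes were chosen with earlier results of these data known. That rule took the sirtuins and Prmt5, called or else the 3 smallest-p genes of each pathway list, the most alike genes (10 for Sirt2, 2 for each other member), nearest and overlapping genes, and markers. Individual values of 2 listed genes are not reported here. Hdac11, Tuba1a and Atat1 were named after their values were seen. Same-numbered KO and WT samples deviated together (r = 0.351, 0.334 and 0.177), but the labels do not state that the numbers are pairs. Replicates 1 both had cerebellar transcripts and replicates 2 both lacked them, and this was not separated from a pairing. The test has group only, and blocked values stand beside it where they change a call. Coordinates are from GENCODE M21 (mm10) and RefSeq (GRCm38.p6).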

Additional observations from a re-analysis of the deposited data

How the results depend on the processing

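Sirt2, which was selected on this contrast, had log2 fold changes over 21 settings from -1.73 (libraries with cerebellar transcripts alone) to -1.28 (those without), where 1 WT or 1 KO library alone forms an arm and takes its spread from the other group. Sirt7 was negative, and Sirt3, Sirt4 and Sirt5 were positive, in all 21. The values of Sirt7 ran from -0.38 to -0.0069, with -0.08 under the cerebellar term. Sirt1 was -0.071 in libraries with and 0.26 in those without cerebellar transcripts, Sirt5 0.42 and 0.0045, and Sirt6 was 0.12 in those with. Genes called numbered 199, but 314 with DESeq2, 566 with the replicate block, 535 with the block and the cerebellar term, 1254 in libraries without cerebellar transcripts (KO replicate 2 alone against 2 WT libraries), 129 with a term for sex (added after the data were seen) and 100 to 305 when 1 library was left out. Pathway lists had 0 called genes, except 1 mitochondrial target (Idh2) with DESeq2, with either block, in libraries without cerebellar transcripts and without KO replicate 1 (leave-one-out range 0 to 1), 1 nuclear or cytosolic target (Acss2) with either block, and Tuba1a, Ido1 and Parp9 (1 per list) in libraries without cerebellar transcripts. Among the pathway lists the block changed no other call. For the cerebellar contrast 121 genes became 450 without a filter, 205 with DESeq2, 187 with length offsets and 1 to 799 on leaving out 1 library. Sirtuins called on it numbered 0 to 1 on leaving out a library, the 1 being Sirt7 (-0.46) without KO replicate 3, and Sirt7 was -0.20 with the block. On it Sirt1 was -0.22 with the block and -0.11 to 0.23 on leaving out a library, and Sirt2 -0.39 to 0.058. The causes were not tested.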
